A study of Mus musculus with 2 samples.

Results

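Transcripts of 9 transcription factors of macrophages and monocytes (Spi1, Irf8, Cebpb, Maf, Bhlhe40, Bhlhe41, Nr4a1, Klf2 and Klf4) were followed through the myeloid cells of 2 mouse lungs. The factors were chosen by gene symbol, and all 9 were present among the 27998 genes of both count tables. The data were single-cell RNA counts of whole lung suspensions, made with 10x Genomics 3′ V2 droplet reagents, as unique molecular identifiers (UMIs, tags that count 1 captured transcript each). One library was labelled control and the other fibrosis, and each came from 1 male C57Bl/6J mouse, 3 months old, that had received 100 µg of titanium dioxide (TiO2, a particle used as a control dust) or of crocidolite asbestos (a fibre that scars the lung) through the trachea 14 days earlier. Both particles are named in the labels of each mouse without assignment to one, and the group names control and fibrosis are used here.

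Cells were placed in a class by markers that include none of the 9 factors. A cell was given to the class with most of its 8 markers detected, with at least 3 detected and no tie. Cells were left out as mixed when a class of another lineage had at least 3 markers and at least 50% of the winner's number. Mixtures of classes within the myeloid lineage were not left out by this rule. The control library gave 2937 myeloid cells of 7510 kept cells, and the fibrosis library 2125 of 6559. Alveolar macrophage-like cells (AM) numbered 576 (control) and 781 (fibrosis). Interstitial macrophage-like cells (IM) numbered 120 and 297, classical monocyte-like cells (cMono) 1424 and 436, and nonclassical monocyte-like cells (ncMono) 162 and 152. Neutrophil-like cells (Neut) numbered 480 and 77, and type 1 dendritic cell-like cells (DC1) 75 and 168. Type 2 dendritic cell-like (DC2, 43 and 116), migratory dendritic cell-like (migDC, 7 and 66) and plasmacytoid dendritic cell-like cells (pDC, 50 and 32) did not reach 50 cells in both libraries and were not compared between them. The leading genes of each class bore out its name, Ear1, Fabp1 and Krt79 in AM and C1qa, C1qc and C1qb in IM. Nr4a1 was itself among the 10 leading genes of ncMono and Irf8 among those of DC1.

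Levels are given as CPM, the UMIs of a gene per 1000000 UMIs of the class, with an exact Poisson 95% interval in brackets, and ratios between libraries as log2 of fibrosis over control with an exact 95% interval. Each group is 1 mouse, so differences between the groups could be neither tested nor checked against replicates, and every interval covers counting error only and says nothing of the spread between mice. The libraries held 36632591 and 38090308 UMIs, with medians of 3691 and 4238 UMIs per kept cell, and shared 89 cell barcodes. In AM the median was 4780 and 5066 UMIs per cell, in cMono 5065.5 and 3850, and in Neut 1847 and 2537.

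Macrophages and monocytes keep their identity through a small set of transcription factors that act together. PU.1, the ETS protein encoded by Spi1, opens myeloid enhancers and works with C/EBP proteins such as C/EBPβ (Cebpb) and with interferon regulatory factors such as IRF8. On top of this shared layer, tissue macrophages carry large Maf proteins such as that of Maf, which restrain self-renewal, while the repressors BHLHE40 and BHLHE41 maintain the identity and renewal of alveolar macrophages. The nuclear receptor NR4A1 is needed for nonclassical monocytes, and the zinc-finger factors KLF2 and KLF4 act in monocytes and in endothelium.

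On GRCm38 (GENCODE M21), Spi1 (ENSMUSG00000002111) lies on the plus strand at chr2:91082390-91115756 and Cebpb (ENSMUSG00000056501) at chr2:167688915-167690418, also plus. Irf8 (ENSMUSG00000041515, chr8:120736358-120756694, plus), Maf (ENSMUSG00000055435, chr8:115682942-115707794, minus) and Klf2 (ENSMUSG00000055148, chr8:72319033-72321656, plus) share a chromosome. Bhlhe40 (ENSMUSG00000030103, chr6:108660629-108666925, plus) and Bhlhe41 (ENSMUSG00000030256, chr6:145858243-145865558, minus) share another. Nr4a1 (ENSMUSG00000023034) lies at chr15:101254269-101274795 on the plus strand and Klf4 (ENSMUSG00000003032) at chr4:55527143-55532466 on the minus strand. Irf8 overlaps Gm20388 on the same strand, and Maf, Cebpb, Bhlhe40 and Bhlhe41 each overlap 1 gene on the opposite strand. How reads in these overlaps were assigned is not given in the sources used here, and the counts of the 5 genes are uncertain to that extent.

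RefSeq promoter windows (GRCm38.p6) were matched for 6 of the 9 factors, with 7 windows in all, and none for Maf, Bhlhe40 or Spi1. Among the factors that were higher in ncMono than in cMono, 3 are shown, because Nr4a1 and Cebpb carry the same short motif and Klf4 does not. Each is the stretch of 250 bases before the RefSeq start, 5′ to 3′ on the gene's strand, at chr15:101266596-101266845 (Nr4a1), chr2:167688665-167688914 (Cebpb) and chr4:55532476-55532725 (Klf4). Capitals mark TGACGCA (a CRE/AP-1-like motif, TGCGTCA on the other strand) or CACGTG (an E-box, the motif for which BHLHE40 and BHLHE41 are known).
Nr4a1: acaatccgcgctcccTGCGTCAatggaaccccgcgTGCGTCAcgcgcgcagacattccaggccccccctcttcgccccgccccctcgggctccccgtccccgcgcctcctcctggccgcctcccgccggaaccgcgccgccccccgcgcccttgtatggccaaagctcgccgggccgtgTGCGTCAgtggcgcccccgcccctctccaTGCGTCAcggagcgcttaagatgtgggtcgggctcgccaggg
Cebpb: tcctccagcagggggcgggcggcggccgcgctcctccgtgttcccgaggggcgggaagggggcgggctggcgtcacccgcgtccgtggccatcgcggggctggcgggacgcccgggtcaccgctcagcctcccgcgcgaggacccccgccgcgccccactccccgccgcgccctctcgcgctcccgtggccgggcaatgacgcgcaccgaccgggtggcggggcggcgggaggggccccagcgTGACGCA
Klf4: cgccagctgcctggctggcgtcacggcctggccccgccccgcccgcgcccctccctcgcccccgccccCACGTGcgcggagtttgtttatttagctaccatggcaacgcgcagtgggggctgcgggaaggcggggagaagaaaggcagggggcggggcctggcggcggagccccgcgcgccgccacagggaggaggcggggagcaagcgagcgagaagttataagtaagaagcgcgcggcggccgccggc
The Nr4a1 window held 4 copies of TGACGCA and the Cebpb window 1, a motif that 1.75% of 32851 such windows carried. The Klf4 window held 1 CACGTG, as did that of Bhlhe41, against 6.02% of all windows. The Klf2 window held the MEF2 motif searched, found in 0.0396% of windows, and 1 of 2 Irf8 windows held TATAAA, found in 12.4%. Also searched, on both strands, were TGACGTCA and GAGGAAGT (a PU.1 motif), which were in none of the 7 windows, and GGGCGG, which was in 6 of them and in 32.7% of all windows. No matches of different motifs overlapped in the 7 windows. The motifs were exact strings chosen after the values were seen, so the shares of all windows do not measure enrichment. These matches are letters in a window and not measured binding sites.

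**Figure D1:**
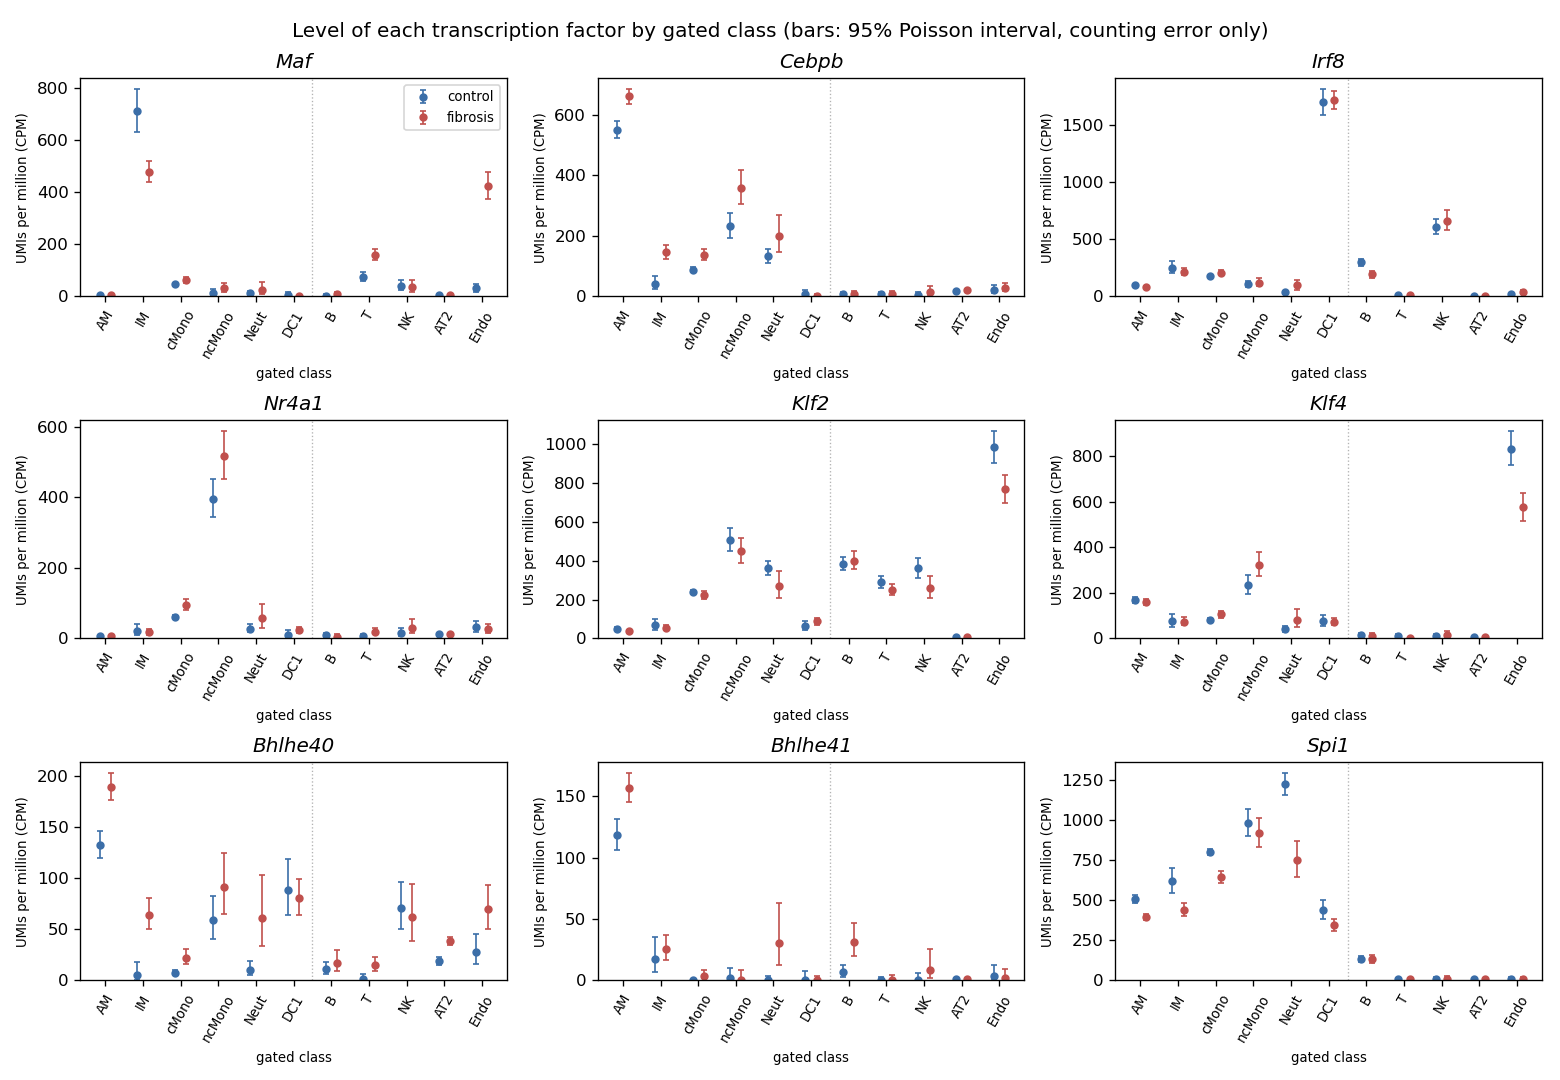
Level of each factor in 6 myeloid and 5 other gated classes (x axis), in CPM (y axis, linear), for the control library (blue) and the fibrosis library (red), with points for the summed class and bars for the 95% Poisson interval. Maf has its highest value in IM at 711 and 479 CPM, beside 425 CPM in fibrosis endothelial-like cells with an interval that overlaps, Bhlhe41 in AM at 119 and 157 CPM, and Nr4a1 in ncMono at 396 and 517 CPM. Most Maf UMIs of the fibrosis endothelial-like cells lay in 16 cells with lymphatic markers.

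Spi1, the shared myeloid factor, was found in every myeloid class and was lower in 5 of the 6 compared classes of the fibrosis library, beyond counting error and by less than 2-fold. In the control library its level was 1227 CPM in Neut, 984 CPM in ncMono, 802 CPM in cMono, 623 CPM in IM, 507 CPM in AM and 442 CPM in DC1. In the fibrosis library it was 918 CPM in ncMono, 751 CPM in Neut, 643 CPM in cMono, 441 CPM in IM, 397 CPM in AM and 344 CPM in DC1. Every compared myeloid class was thus lower in the fibrosis library, least so in ncMono. The log2 ratio was -0.35 in AM (-0.46 to -0.25), -0.50 in IM (-0.72 to -0.27), -0.32 in cMono (-0.41 to -0.23), -0.71 in Neut (-0.95 to -0.48) and -0.36 in DC1 (-0.61 to -0.11), and -0.10 in ncMono with an interval that included 0. B cell-like cells, the other class with clear Spi1, held 132 CPM in both libraries. After each cell was thinned to 1000 UMIs, 42.2% of control and 31.4% of fibrosis AM held a Spi1 UMI (85.1% and 83.1% unthinned), against 0.957% and 0.439% of T cell-like cells.

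Irf8, which dendritic cells need and which pairs with PU.1, was highest among the compared classes in DC1 and was nearly equal there in both libraries, with 1698 CPM (1585 to 1818) in the control and 1717 CPM (1640 to 1796) in the fibrosis library. The pDC held 3175 CPM in the control library (50 cells) and 3296 CPM in the fibrosis library (32 cells). NK cell-like cells followed with 608 and 665 CPM. In IM the level was 254 and 218 CPM, in cMono 179 and 209 CPM, in ncMono 108 and 121 CPM, and in AM 99.7 and 80.0 CPM. In the fibrosis library the neighbours IM and cMono overlapped in their intervals. The DC2, another dendritic class, held 13.9 and 54.5 CPM.

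Cebpb, whose protein drives inflammatory and macrophage genes, was highest in AM, with 551 CPM (525 to 579) in the control and 661 CPM (637 to 686) in the fibrosis library. AM held 43.7% of the Cebpb UMIs of all kept control cells and 51.4% of those of the fibrosis library. The next class was ncMono with 233 and 358 CPM, and then Neut with 133 and 201 CPM. In cMono the level was 88.7 and 137 CPM, and in IM 41.8 and 146 CPM. The DC1 were at the other end, with 4 and 3 UMIs in all. Every one of the other 5 compared classes was higher in the fibrosis library beyond counting error, and in IM alone by 2-fold or more. These 2 ratios depended on the processing, since the AM ratio of 0.26 became -0.18 with the median ratio of non-myeloid classes subtracted, and the IM ratio of 1.80 became 0.25 with clusters in place of the marker gate.

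Maf, the large Maf protein of interstitial macrophages, separated the 2 macrophage classes more widely than any other of the 9 factors. IM held 711 CPM (632 to 798) in the control and 479 CPM (439 to 522) in the fibrosis library, and AM held 4.53 CPM (13 UMIs) and 5.09 CPM (22 UMIs). In the fibrosis library endothelial-like cells, at 425 CPM, were not apart from IM beyond counting error. Of their Maf UMIs, 256 lay in 16 cells with at least 2 lymphatic markers, and the other 145 cells stood at 13.6 CPM. Monocytes lay between the macrophage classes, with 46.4 and 61.4 CPM in cMono and 14.7 and 31.9 CPM in ncMono. After thinning, 45.0% of control and 35.4% of fibrosis IM held a Maf UMI (68.3% and 57.6% unthinned), against 0.347% and 0.384% of AM and 0.155% and 0% of B cell-like cells (0.773% and 1.82% unthinned). The AM shares were near that background, so a Maf level in AM was not separated from free RNA at this depth. A thinned count of 0 among 275 B cell-like cells allows a share of up to 1.09% at that depth, by the limit of 3 counts.

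Bhlhe41 was highest in AM in both libraries, as was its relative Bhlhe40 among the compared classes, but Bhlhe40 was also found in dendritic cells and ncMono. Bhlhe41 stood at 119 CPM (106 to 132) in control AM and 157 CPM (145 to 169) in fibrosis AM, which held 67.7% and 63.9% of all its UMIs. In IM it was at 17.2 CPM (7 UMIs) and 25.6 CPM (28 UMIs), in cMono at 1 and 7 UMIs, and in DC1 and DC2 at 0 UMIs in both libraries. Neut held 0 and 7 UMIs of it, and ncMono 1 and 0 UMIs. Bhlhe40 stood at 132 CPM (119 to 146) in control AM and 189 CPM (177 to 203) in fibrosis AM. It was at 88.3 and 80.3 CPM in DC1, at 58.6 and 91.1 CPM in ncMono, at 7.69 and 22.2 CPM in cMono and at 4.92 and 64.1 CPM in IM. In the fibrosis library migDC held 226 CPM, DC2 191 CPM and AM 189 CPM of Bhlhe40, with overlapping intervals.

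Nr4a1 marked ncMono in both libraries, with 396 CPM (345 to 452) in the control and 517 CPM (452 to 589) in the fibrosis library. The cMono followed with 59.6 and 95.5 CPM. Neut held 28.0 and 56.8 CPM, IM 22.2 and 17.4 CPM, DC1 10.3 and 22.8 CPM, and AM 7.32 and 6.48 CPM. After thinning, 33.3% of control and 30.9% of fibrosis ncMono held an Nr4a1 UMI (63.0% and 68.4% unthinned), against 1.05% and 1.46% of AT2-like cells (alveolar epithelial type 2), whose median depth was 5551 and 5436.5 UMIs against 2576 and 2573.5 UMIs in ncMono. The shares of AM, 1.56% and 0.384%, were no higher than that background beyond their intervals.

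Klf2 and Klf4 were highest outside the myeloid cells, in endothelial-like cells, at 985 and 767 CPM for Klf2 and 834 and 576 CPM for Klf4. Among the compared myeloid classes both were highest in ncMono. Klf2 stood there at 506 CPM (448 to 569) in the control and 451 CPM (390 to 518) in the fibrosis library, in Neut at 363 and 271 CPM, in cMono at 239 and 223 CPM, and in AM at 50.9 and 36.1 CPM. Klf4 stood in ncMono at 236 CPM (197 to 281) and 323 CPM (272 to 381), in AM at 168 and 161 CPM, in cMono at 81.7 and 106 CPM, and in IM at 76.3 and 74.2 CPM. The pair thus differed in AM, where Klf4 was the second highest of the compared myeloid classes and Klf2 had its lowest value. In the control library that Klf2 value was not apart from DC1 or IM beyond counting error.

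Within each library the factors divided AM from IM in the same way. These contrasts between classes of 1 library were chosen after the levels had been seen, and a gene was counted when at least 2-fold apart with 20 or more UMIs over both classes. In both libraries 4 of the 9 were higher in AM (Cebpb, Klf4, Bhlhe40 and Bhlhe41), 3 were lower (Maf, Irf8 and Nr4a1) and 2 were neither (Klf2 and Spi1). Of all genes tested, 21.2% were higher and 9.79% lower in AM in the control library, and 15% and 9.57% in the fibrosis library. The counted Maf level was 157-fold lower in AM than in IM in the control library and 94.1-fold lower in the fibrosis library, and since the AM level was not separated from free RNA these folds can be read only as lower bounds. For Nr4a1 neither class was separated from the AT2-like background after thinning, where IM shares were 0.833% and 1.68% (5.00% and 4.71% unthinned), so its difference rests on the summed levels alone. Cebpb was 13.2-fold and 4.54-fold higher, and Bhlhe41 6.88-fold and 6.12-fold higher. For Bhlhe40 the ratio was 26.8-fold in the control library, on 2 IM UMIs (log2 interval 2.88 to 7.80), and 2.95-fold in the fibrosis library. In the cells whose gate and cluster were the same, the calls for AM against IM were unchanged for all 9 factors, but in the fibrosis library AM were 7.16-fold higher for Bhlhe40 and 8.10-fold higher for Cebpb. In the control library Cebpb was then 15.7-fold higher, and Bhlhe41 had a log2 ratio of 3.46 in place of 2.78. Bhlhe40, at 0 UMIs in control IM, was at least 16.3-fold higher with the 0 placed at 3 counts.

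The 2 monocyte classes were divided as alike in both libraries. Of 8 factors tested, 5 were higher in ncMono than in cMono (Cebpb, Nr4a1, Klf2, Klf4 and Bhlhe40), beside 10.3% (control) and 7.49% (fibrosis) of all genes. Nr4a1 was 6.64-fold and 5.41-fold higher, Bhlhe40 7.63-fold and 4.11-fold, and Cebpb 2.62-fold and 2.61-fold. In the cells whose gate and cluster were the same, the ratio of Nr4a1 was 8.59-fold in the control and 8.31-fold in the fibrosis library. Maf was lower in ncMono, 3.17-fold in the control library and 1.93-fold in the fibrosis library, where it missed the 2-fold limit. The genes lower in ncMono made up 10% (control) and 9.47% (fibrosis) of those tested. Irf8 and Spi1 were within 2-fold in both libraries. Against cMono, AM were higher for Cebpb, Bhlhe40 and Bhlhe41 and lower for Maf, Nr4a1 and Klf2 in both libraries, while Klf4 was called higher in the control library alone and Irf8 lower in the fibrosis library alone. Where gate and cluster were the same, Klf4 was also called higher in the fibrosis library, at 2.07-fold against 1.51-fold. The shares of all genes were 26.7% higher and 10.8% lower in the control library, and 24.8% and 9.82% in the fibrosis library.

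**Figure D2:**
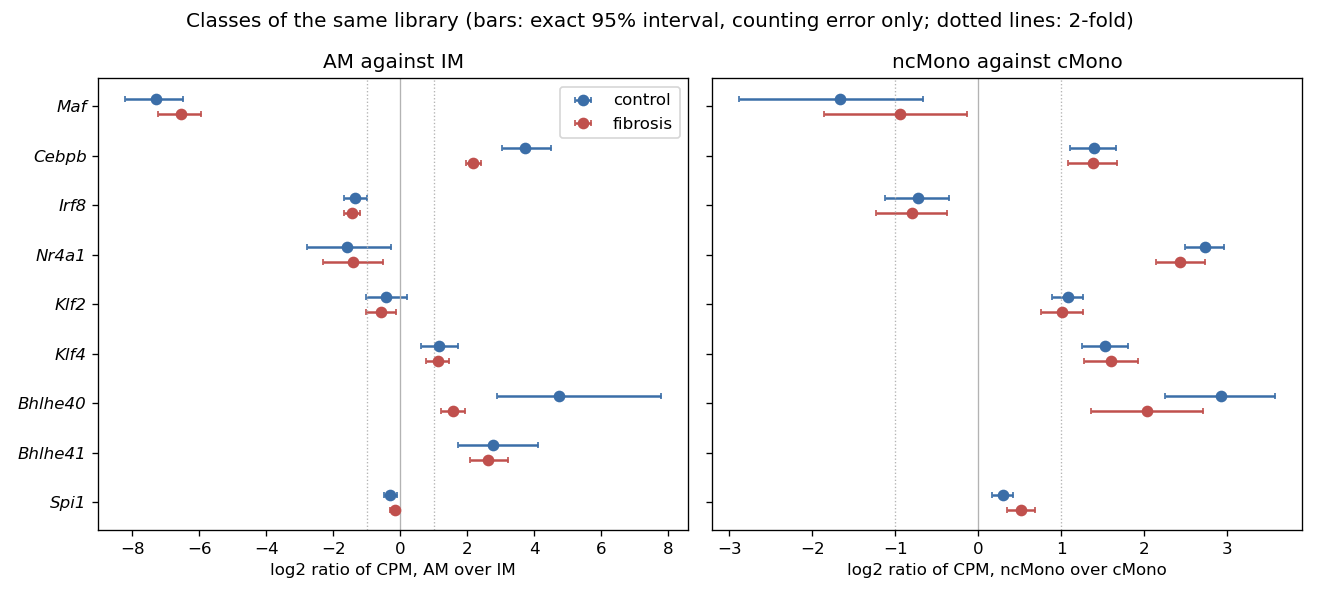
Ratio of each factor between 2 classes of the same library (x axis, log2 of CPM over CPM), with AM over IM on the left and ncMono over cMono on the right, in blue for the control and red for the fibrosis library, with exact 95% intervals for counting error and dotted lines at 2-fold. Maf lies farthest to the left for AM over IM at -7.29 and -6.56, and Nr4a1 lies to the right for ncMono over cMono at 2.73 and 2.44.

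The next comparison set the fibrosis library against the control library within each class, which the design asks of every gene. In AM none of the 9 factors was 2-fold apart, where 3.19% of 9900 genes were at least 2-fold higher and 1.91% lower. Within that limit Cebpb (log2 0.26, 0.17 to 0.35), Bhlhe40 (0.52, 0.34 to 0.70) and Bhlhe41 (0.40, 0.21 to 0.60) were higher beyond counting error. Spi1, Irf8 (-0.32, -0.55 to -0.09) and Klf2 (-0.50, -0.83 to -0.16) were lower. With the median ratio of B, T, NK, AT2 and endothelial-like cells subtracted, the 3 higher ratios turned direction, to -0.18 for Cebpb, -0.50 for Bhlhe40 and -1.84 for Bhlhe41. For Bhlhe41 that median was the ratio in B cell-like cells alone (9 and 23 UMIs). Maf, Nr4a1 and Klf4 had intervals that included 0. The median of the 9 was -0.07, and that of all genes tested -0.06.

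**Figure D3:**
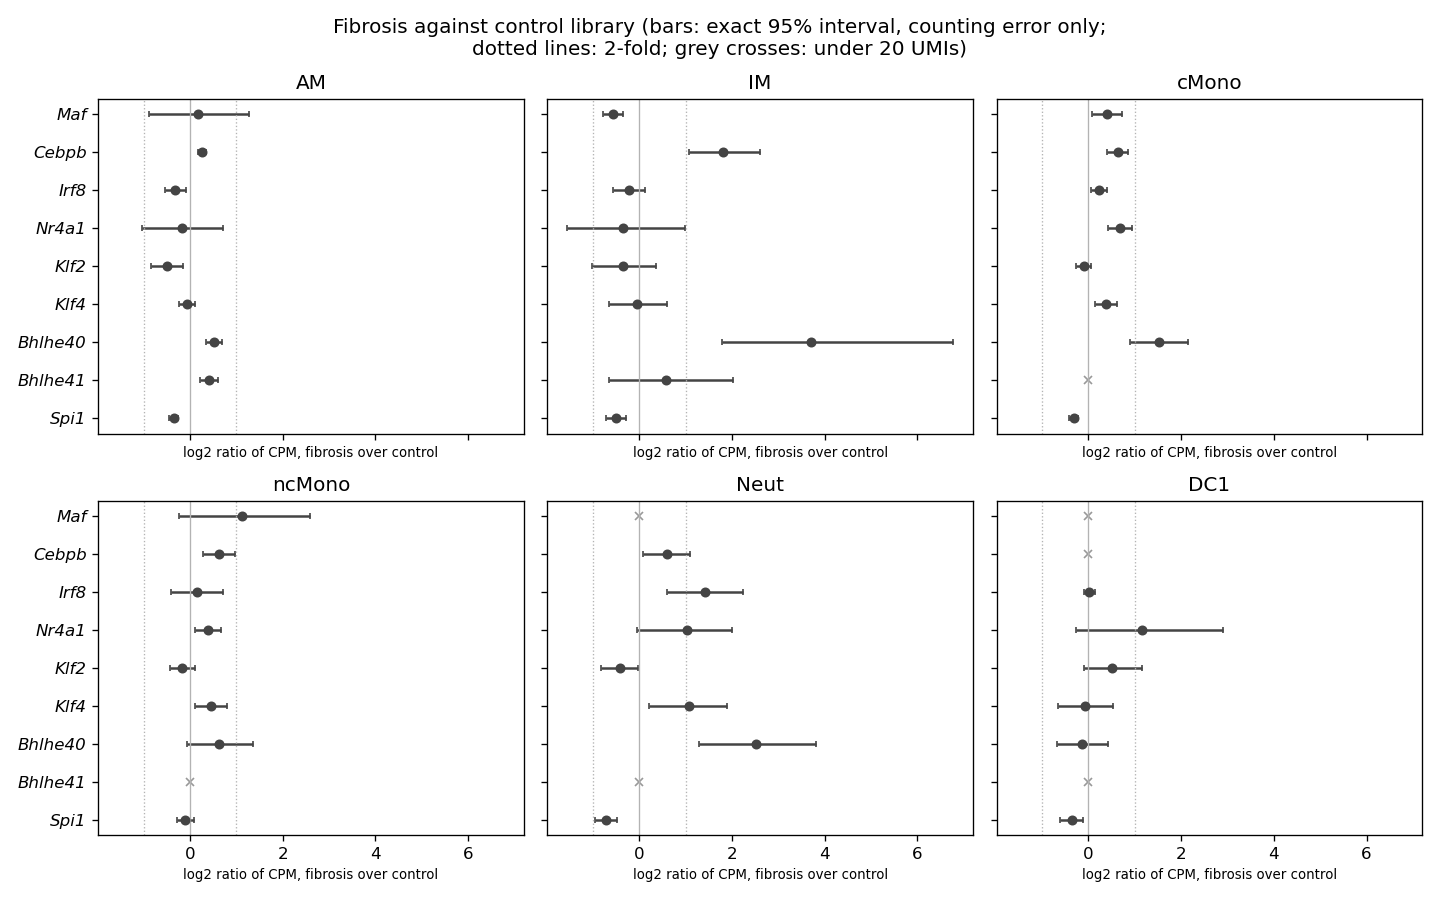
Ratio of fibrosis to control (x axis, log2 of CPM over CPM) for each factor in the 6 compared myeloid classes, with exact 95% intervals for counting error, dotted lines at 2-fold and grey crosses for genes under 20 UMIs over both libraries. Bhlhe40 lies to the right of the 2-fold line in IM at 3.70, in cMono at 1.53 and in Neut at 2.53, and no factor with 20 or more UMIs lies to the left of the lower line.

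In IM, 2 of the 9 factors were at least 2-fold higher in the fibrosis library, Cebpb and Bhlhe40, beside 7.62% of 6538 genes tested, and none was lower, beside 3.76%. Cebpb had 17 UMIs in 120 control cells and 159 UMIs in 297 fibrosis cells, or 41.8 and 146 CPM (log2 1.80, 1.07 to 2.61). Bhlhe40 had 2 and 70 UMIs, or 4.92 and 64.1 CPM (log2 3.70, 1.80 to 6.78). Maf was lower by less than 2-fold (log2 -0.57, -0.78 to -0.36), and by 2-fold or more (-1.09) with the median ratio of non-myeloid classes subtracted.

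Alveolar markers moved with these 2 values. The 8 AM markers summed to 726 CPM in control IM, with Plet1 and Marco at 0, and to 3129 CPM in fibrosis IM, with Krt79 at 0, while the 8 IM markers summed to 22725 and 14741 CPM. In a clustering of all cells, 26 of the 297 fibrosis IM (8.75%) lay in AM clusters, and those 26 held 75 of the 159 Cebpb UMIs and 41 of the 70 Bhlhe40 UMIs. Their levels, 461 CPM for Cebpb, 252 CPM for Bhlhe40 and 24.6 CPM for Maf, were nearer to those of AM than of IM. The clusters named AM were led by Fabp1 and Ear1, by Mmp12 and Spp1, or by Top2a and Birc5. Which of these clusters held the 26 cells was not determined. In the 256 fibrosis IM that also clustered as IM, Cebpb stood at 81.7 CPM against 35.1 CPM in 114 such control cells (log2 1.22), and Bhlhe40 at 26.5 CPM (23 UMIs) against 0 UMIs, a log2 ratio of at least 1.71 with the 0 placed at its limit of 3 counts. With clusters in place of the gate, the Cebpb ratio was 0.25, under 2-fold, and that of Bhlhe40 1.46.

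In cMono 1 of 8 factors tested was at least 2-fold higher, Bhlhe40, beside 4.56% of 9554 genes, and none was lower, beside 2.79%. It had 56 UMIs in 1424 control cells and 39 UMIs in 436 fibrosis cells (log2 1.53, 0.90 to 2.14). Nr4a1 (0.68, 0.42 to 0.94), Cebpb (0.63, 0.41 to 0.84), Maf (0.40, 0.08 to 0.72), Klf4 (0.38, 0.14 to 0.62) and Irf8 (0.23, 0.06 to 0.40) were higher by less than 2-fold, beyond counting error. Bhlhe40 was also higher outside the myeloid cells, and its median ratio over B, T, NK, AT2 and endothelial-like cells was 1.02. With that median subtracted, the cMono ratio of Bhlhe40 was 0.51, and with each factor's own such median those of Maf and Irf8 turned to -0.12 and -0.27.

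The cMono gate caught different cells in the 2 libraries. Of control cMono, 88.1% also clustered as cMono and 5.83% as ncMono, and of fibrosis cMono 67.0% and 19.5%. Nr4a1 stood at 190 CPM in the 83 control and 247 CPM in the 85 fibrosis cMono that clustered as ncMono. In those that clustered as cMono it was at 51.1 and 65.8 CPM (log2 0.37), and Bhlhe40 at 5.60 and 15.0 CPM (log2 1.42). In these same cells Irf8 and Klf4 had log2 ratios of -0.02 and -0.01.

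In ncMono 1 of 8 factors tested was at least 2-fold higher, Maf, beside 3.48% of 4683 genes, with 8 and 14 UMIs and an interval that included 0 (log2 1.12, -0.23 to 2.58). It fell short of 2-fold in 4 of 12 other ways of processing. None was lower, beside 4.38%. Cebpb (0.62, 0.27 to 0.97), Klf4 (0.45, 0.10 to 0.81) and Nr4a1 (0.39, 0.11 to 0.66) were higher by less than 2-fold, beyond counting error. Neutrophil markers summed to 10297 CPM in control and 1285 CPM in fibrosis ncMono, and their part in these ratios was not tested.

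In Neut 4 of 7 factors tested were at least 2-fold higher (Irf8, Nr4a1, Klf4 and Bhlhe40), where 20.4% of 3958 genes were higher and 7.33% lower. The fibrosis class held 77 cells, and 50 of them also clustered as Neut. In all 77, AM markers summed to 2359 CPM against 416 CPM in control Neut, and Neut markers to 190311 CPM against 312379 CPM. Bhlhe40, with 11 and 14 UMIs (log2 2.53, 1.28 to 3.81), had a ratio of at least 2-fold under every alternative run. In the cells that also clustered as Neut, however, it had 10 and 6 UMIs, too few for a call. In those cells Irf8 was at 0.24, Nr4a1 at 1.74 and Klf4 at 1.19. With the median ratio of non-myeloid classes subtracted, Irf8 was at 0.93, under 2-fold, and with clusters in place of the gate Irf8, Nr4a1 and Klf4 were at -0.72, 0.38 and -0.20.

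In DC1 1 of 6 factors tested was at least 2-fold higher, Nr4a1, beside 4.22% of 5978 genes, with 5 and 25 UMIs and an interval that included 0 (log2 1.15, -0.26 to 2.89). With clusters in place of the gate its log2 ratio was -0.02, and in the cells that also clustered as DC1 it was 1.12. None was lower, beside 3.58%, although Bhlhe40 (-0.14) was at -1.15 with the median ratio of non-myeloid classes subtracted.

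Outside the myeloid cells no factor with 20 or more UMIs in a class was at least 2-fold lower in the fibrosis library, and Bhlhe40 was higher in 4 classes. Below that floor, Klf4 had 13 and 4 UMIs in T cell-like cells (log2 -1.88, -3.95 to -0.18). In T cell-like cells 3 of 7 tested were higher (Maf, Nr4a1 and Bhlhe40), beside 6.24% of all genes higher and 1.69% lower. In endothelial-like cells 3 of 7 were higher (Maf, Irf8 and Bhlhe40), beside 6.2% and 5.14%, and in club-like cells, secretory cells of the airway, 3 of 6 were higher (Irf8, Bhlhe40 and Spi1), beside 12.7% and 1.98%. In B cell-like cells 1 of 6 was higher (Bhlhe41), beside 3.69% and 3.35%, and in AT2-like cells 1 of 8 (Bhlhe40), beside 3.69% and 1.2%. None was 2-fold apart among 4 tested in NK cell-like cells, beside 3.25% and 4.81%, or among 4 in ciliated-like cells, beside 4.86% and 1.48%.

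Fibrosis AM included cells with much Mmp12, the macrophage elastase. At a limit of 10 Mmp12 UMIs per 10000, 121 of 781 fibrosis AM (15.5%) and 2 of 576 control AM were Mmp12-high, and 70 fibrosis cells lay between 5 and 20. None of the 9 factors was 2-fold apart between the 121 cells and the other 660, beside 4.17% of 9054 genes higher and 7.49% lower. Bhlhe40 was higher in the Mmp12-high cells, at 259 CPM (224 to 297) against 175 CPM (161 to 189), and Cebpb was at 798 CPM (736 to 864) against 632 CPM (606 to 659). Spi1 was lower, at 268 CPM (232 to 307) against 425 CPM (403 to 446), as were Irf8, at 53.8 against 85.6 CPM, and Klf4, at 126 against 168 CPM.

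The other 574 control AM gave a further level for each. Bhlhe40 stood at 132, 175 and 259 CPM in control, other fibrosis and Mmp12-high cells, and Spi1 at 507, 425 and 268 CPM. Both kept this order beyond their intervals, as did Cebpb at 553, 632 and 798 CPM. The step from control to other fibrosis cells lies between libraries, at log2 0.41 for Bhlhe40, 0.19 for Cebpb and -0.26 for Spi1. The median ratios of the non-myeloid classes were 1.02, 0.44 and -0.01, so with these subtracted the first step of Bhlhe40 and Cebpb turns direction. Maf was at 3 UMIs in the Mmp12-high cells and at 19 UMIs in the other fibrosis AM. The IM marker genes summed to 219 CPM in the Mmp12-high cells, with Folr2 and Ccl12 at 0, and to 69.9 CPM in the others. Their part in the values of the 9 factors was not tested.

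**Figure D4:**
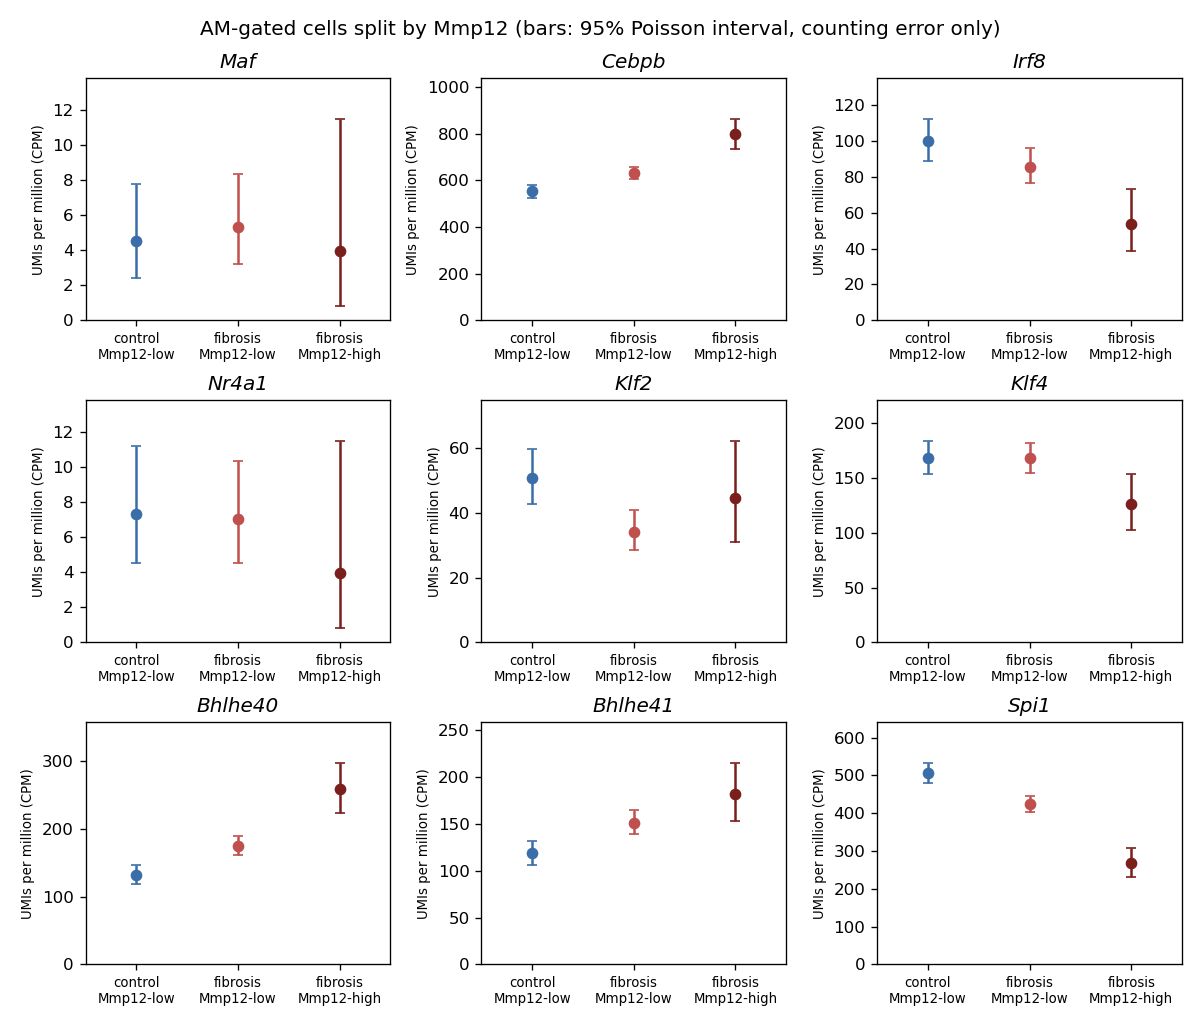
Level of each factor (y axis, CPM, linear, starting at 0) in control AM with little Mmp12, fibrosis AM with little Mmp12 and Mmp12-high fibrosis AM (x axis), with 95% Poisson intervals. Bhlhe40 climbs over the 3 groups from 132 to 259 CPM and Spi1 descends from 507 to 268 CPM.

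Other transcription factors of the same families and lineages were counted from lists. Among all genes tested, 3.19% were higher and 1.91% lower in AM, and 7.62% and 3.76% in IM. The shares were 4.56% and 2.79% in cMono, and 3.48% and 4.38% in ncMono. Of 26 family relatives in the files, 20 were tested in AM, and those at least 2-fold apart included Irf4, which was higher, and Irf7, which was lower. In AM, Irf4 had 2 and 26 UMIs (3.11, 1.11 to 6.23), and Irf7, an interferon-response factor, had 12 and 9 UMIs with an interval that included 0. In IM, of 18 tested, Mafg was higher (log2 1.43) and Irf1 (-1.23) and Irf7 (-1.94) were lower. In cMono (21 tested) and ncMono (17 tested) none was 2-fold apart. The medians of the relatives were -0.24, -0.14, 0.01 and 0.00 in AM, IM, cMono and ncMono, and those of all genes -0.06, 0.00, 0.04 and -0.01.

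Of 33 other myeloid lineage factors, none of 29 tested in AM was 2-fold apart. Among all genes tested, 3.19% were higher and 1.91% lower in AM, 7.62% and 3.76% in IM, and 3.48% and 4.38% in ncMono. In IM, Id2 (log2 1.06) and Tfec (1.11, on 5 and 29 UMIs with an interval that included 0) were higher and Relb (-1.60), an NF-κB subunit, was lower among 29 tested. In cMono 4 of 29 were higher, namely Nr1h3 (1.92), which encodes the sterol receptor LXRα, Bach2 (1.66), Bcl6 (1.28) and Etv3 (1.16), and none was lower, beside 4.56% and 2.79% of all genes. The cMono gate caught different cells in the 2 libraries, as given above, and the part of this in these ratios was not tested. In ncMono, of 26 tested, Batf3 was higher (1.27) and Pparg and Tfeb (both -1.01) were lower with intervals that included 0 or reached it. The medians of these factors were 0.05, 0.23, 0.25 and -0.19 in AM, IM, cMono and ncMono. In Neut, 4 of 16 family relatives and 5 of 19 other lineage factors were higher, beside 20.4% of all genes. Of 7 growth factor receptors, Csf3r was lower in ncMono (-1.36). It is 1 of the 8 neutrophil markers of the gate, whose sum was also lower there, as given above. None was 2-fold apart in AM, IM or cMono.

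Nr4a1 is an immediate-early gene, induced within a short time of stimulation and in tissue digestion, so 20 immediate-early and heat shock genes were counted beside it. In ncMono, of 14 tested, Dusp1 alone was 2-fold apart, lower in the fibrosis library at 192 and 91.1 CPM. In cMono, of 19 tested, Atf3 was lower (-1.33), and in IM, of 17 tested, Hsph1 was higher (1.33, on 4 and 27 UMIs) and Egr1 lower (-1.22). In AM, of 20 tested, Hspa1b (-2.80) and Hspa1a (-2.35), near-identical genes whose reads may be shared, were lower. In Neut 4 of 14 were lower (Fos, Junb, Dusp1 and Socs3), beside 7.33% of all genes, and in DC1 none of 15 was 2-fold apart. Their medians were -0.15 in AM, -0.28 in IM, -0.12 in cMono and -0.15 in ncMono. Among all genes tested, 3.19% were higher and 1.91% lower in AM, and 7.62% and 3.76% in IM. The shares were 4.56% and 2.79% in cMono, 3.48% and 4.38% in ncMono, and 4.22% and 3.58% in DC1.

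The genes whose levels over 13 classes were most like each factor were ranked by the lower of the 2 libraries' Pearson correlation of log2(CPM + 10), among 7728 genes. These had at least 200 UMIs in each library, and the gate markers and the 9 factors were left out of the ranking. The closest were Pirb for Spi1 (lower r 0.974), Rasgrp2 for Klf2 (0.923), Serpinb10 for Nr4a1 (0.905), Nav1 for Klf4 (0.897), Pygl for Cebpb (0.885), Lat2 for Irf8 (0.861), Ctsk for Bhlhe41 (0.845), Itgax for Bhlhe40 (0.770) and Igfbp4 for Maf (0.758). Itgax encodes CD11c, an integrin chain of alveolar macrophages and dendritic cells, and Ctsk the protease cathepsin K. Among the 9 factors themselves, Cebpb and Bhlhe41 correlated at 0.59 and 0.54, and Bhlhe40 and Bhlhe41 at 0.32 and 0.29. The classes of a library share its free RNA and its depth, and these values are descriptions.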

How the data were processed

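Gene by cell UMI counts were deposited by the authors as raw whole-number counts, without normalization per the labels and file contents. Per the submitters' processing notes, bcl2fastq and Cell Ranger 1.3 were used with the mm10 build. Of 27998 gene identifiers, 98.7% occur in GENCODE M21.

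Cells with at least 200 genes and at most 10% mitochondrial UMIs were kept, and the highest scrublet scores (scanpy 1.11.5) were removed at 0.8% per 1000 cells in both libraries, 515 control and 386 fibrosis cells. Scrublet's own threshold marked 13 (0.162%) and 168 (2.42%). The marker gate left out 1465 control and 1069 fibrosis cells as mixed, 325 and 342 as tied, and 160 and 212 with too few markers. The files lacked 2 of the marker symbols. Of kept cells, none was shallower than the 1000 UMIs used for thinning. A call is a fold of at least 2 with 20 or more UMIs over both libraries, and a 0 was placed at 3 counts. Intervals were computed with scipy 1.17.1 (Poisson for levels, conditional binomial for ratios) and cover counting error only. The gate and the ratio were run on counts simulated from the summed profiles of gated control classes. The simulated cells had a fixed depth and no mixtures or doublets, so the run does not show how the gate treats mixed or shallow cells. The clustering alternative used 2000 variable genes, 30 principal components, 15 neighbours and Leiden resolution 1 (python-igraph 0.11.9).

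The 9 factors and the gene lists were chosen with earlier results of these data known. Every factor is reported in every compared myeloid class, with the 3 genes of highest likeness per factor ranked and up to 4 genes per list in each of AM, IM, cMono and ncMono by largest ratio among those called. Chosen after the values were seen were the contrasts between classes of 1 library, the comparison of gate with cluster, the motifs, the lymphatic markers, the naming of clusters by leading genes, and the alternatives that keep mixed cells or require gate and cluster to be the same, also in those contrasts. The result of 1 gene of the lists is not reported here.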

Additional observations from a re-analysis of the deposited data

Results flagged for a closer look

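Some of the 9 factors were at least 2-fold higher in the fibrosis library outside the myeloid classes, in classes that the comparisons of myeloid cells do not use. Bhlhe40 was so in 4 classes, with log2 ratios of 3.14 in T cell-like (2 and 20 UMIs), 2.66 in club-like (2 and 27 UMIs), 1.31 in endothelial-like (16 and 43 UMIs) and 1.02 in AT2-like cells (99 and 349 UMIs). Maf had a log2 ratio of 3.76 in endothelial-like cells, from 18 UMIs in 239 cells to 263 UMIs in 161 cells. Of those, 15 of the 18 and 256 of the 263 UMIs lay in cells with at least 2 of 6 lymphatic markers (Prox1, Mmrn1, Flt4, Ccl21a, Reln and Thy1), of which there were 6 (control) and 16 (fibrosis), and the remaining cells held 3 and 7 UMIs. Maf also had a ratio of 1.08 in T cell-like cells (75.5 and 160 CPM), and Nr4a1 one of 1.52 (8 and 26 UMIs). In B cell-like cells Bhlhe41 had a ratio of 2.24 (9 and 23 UMIs). Irf8 had ratios of 1.07 in endothelial-like (11 and 25 UMIs, interval reaching 0) and 1.71 in club-like cells (4 and 28 UMIs), and Spi1 one of 1.60 in club-like cells (4 and 26 UMIs). Of the club-like cells, 55.6% of control and 57.3% of fibrosis cells also clustered as club cells.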

How the results depend on the processing

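No paired analysis was possible because the labels give both groups mouse number 1 alone, which is fewer than 2 shared numbers. With 1 library per group, none could be left out. The count of factors at least 2-fold higher in ncMono, 1 (Maf), became 0 when 1 floor of UMIs per cell was set for both libraries, with the median ratio of B, T, NK, AT2 and endothelial-like cells subtracted, with cells thinned to 1000 UMIs, with clusters as classes, with 50 UMIs as the floor of a call and with mixed cells kept. With that median subtracted, the count of higher factors in cMono also became 0, and the counts of lower factors became 1 in AM (Bhlhe41) and 2 in IM (Maf and Bhlhe41). For Bhlhe41 that median is the ratio in B cell-like cells alone, 2.24 on 9 and 23 UMIs, so its calls rest on 1 class. In AM, Cebpb and Bhlhe40 then turned direction, to -0.18 and -0.50. Thinning left 1 higher factor in IM (Cebpb), since Bhlhe40 then had under 20 UMIs, and with no UMI floor 2 were higher in cMono (Bhlhe40 and Bhlhe41). With clusters as classes, 3 called ratios changed sign: Irf8 in Neut to -0.72, Klf4 in Neut to -0.20 and Nr4a1 in DC1 to -0.0200; the cause was not tested. The count in IM stayed at 2 with clusters as classes, but the factors were then Bhlhe40 and Bhlhe41, and Cebpb was at 0.25. With at least 4 markers for a class, the 1 factor higher in ncMono was Bhlhe40, Maf having under 20 UMIs. The Cebpb call in IM thus depends on the classes; Bhlhe40 in IM, 3.70, ranged from 1.46 to 4.45 over 13 alternatives. Some clusters that served as classes were led by none of their own markers. At these depths a factor with under 20 UMIs in a class gives no call, and the particles each mouse received cannot be told apart from the mouse itself.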
